A study of Mus musculus with 24 samples.

Results

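The endocannabinoid system genes examined here were *Cnr1*, *Dagla*, *Daglb*, *Napepld*, *Mgll* and *Faah*, which encode the cannabinoid receptor CB1 and the enzymes that make and break down its lipid ligands. They were taken by gene name from the deposited table of read counts, where all 6 were found among 46983 genes. Bulk mRNA had been sequenced from hippocampal punches of dorsal and ventral tissue of 24 female mice on a C57BL/6 background, in 4 groups of 6. *Fkbp5* lox/lox mice carry floxed *Fkbp5* alleles but no Cre and were the littermate wild types, and *Fkbp5* Nex mice carry the same alleles with Cre driven by the *Nex* locus, which deletes *Fkbp5* in glutamatergic forebrain neurons. The study states that this deletion spares the dentate gyrus. Early life stress (ELS) was limited bedding and nesting material from postnatal day 2 to 9, controls were reared without it, and behavioural testing began at 6 months of age. The study took the sequenced tissue from its first cohort. That cohort had gone through the behavioural tests, with the Morris water maze among them, and an MRI scan. The comparisons ask whether ELS changed these genes in either genotype, whether loss of the stress co-chaperone FKBP51 changed them, and whether the effects depended on each other.

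Endocannabinoids are lipids made on demand, mostly in the postsynaptic neuron, that travel back across the synapse and lower transmitter release through presynaptic CB1. In the hippocampus CB1 is most dense on the terminals of cholecystokinin (CCK) interneurons and is present at lower density on glutamatergic terminals. The ligand 2-arachidonoylglycerol (2-AG) is made from diacylglycerol by the lipases DAGLα and DAGLβ and broken down mainly by monoacylglycerol lipase, whereas anandamide can be released by NAPE-PLD and is hydrolysed by fatty acid amide hydrolase. Glucocorticoids are known to recruit this signalling during the stress response, and FKBP51 lowers the sensitivity of the glucocorticoid receptor.

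The genes lie apart in the genome. In GENCODE vM21 (GRCm38), *Cnr1* is on chromosome 4 from 33924593 to 33948831 on the plus strand and *Faah* on the same chromosome from 115967145 to 116017926 on the minus strand. *Daglb* lies on chromosome 5 from 143464584 to 143505942 (plus) and *Napepld* on chromosome 5 from 21662901 to 21701396 (minus). *Dagla* lies on chromosome 19 from 10245265 to 10304877 (minus) and *Mgll* on chromosome 6 from 88724412 to 88828360 (plus). No exon of *Cnr1*, *Dagla*, *Faah* or *Napepld* overlaps an exon of another annotated gene. In *Daglb*, 24.1% of the exon bases lie under *Rac1* on the opposite strand, a gene with 4273 to 6021 counts per mouse, and in *Mgll* 3.29% lie under the antisense gene *Gm26588*, with 40 to 107 counts. Whether the counting used strand is not given in the sources used here, so reads of *Daglb* and *Rac1* in the shared bases may not be told apart.

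Promoter sequences are shown for *Cnr1* and for *Napepld* and *Faah*, because the last pair varied together most closely from mouse to mouse and *Cnr1* varied against *Napepld*, as described further down. They are the 250 bases before the most upstream RefSeq transcription start (GRCm38.p6), written 5′ to 3′ on the gene's own strand, at chr4:33924014-33924263 (plus) for *Cnr1*, chr5:21701623-21701872 (minus) for *Napepld* and chr4:116017925-116018174 (minus) for *Faah*. Capitals mark the hexamer TGTTCT or its reverse complement AGAACA, the core letters bound by a subunit of the glucocorticoid receptor.
Cnr1: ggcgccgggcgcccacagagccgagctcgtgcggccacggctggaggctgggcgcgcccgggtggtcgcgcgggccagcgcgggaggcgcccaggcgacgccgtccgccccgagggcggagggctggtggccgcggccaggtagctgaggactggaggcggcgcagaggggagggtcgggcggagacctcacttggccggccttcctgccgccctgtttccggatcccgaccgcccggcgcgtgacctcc
Napepld: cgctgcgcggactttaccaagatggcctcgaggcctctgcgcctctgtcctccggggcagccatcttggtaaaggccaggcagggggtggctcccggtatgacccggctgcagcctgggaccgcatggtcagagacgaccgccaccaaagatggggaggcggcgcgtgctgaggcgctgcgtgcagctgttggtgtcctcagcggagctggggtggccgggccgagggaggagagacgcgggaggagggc
Faah: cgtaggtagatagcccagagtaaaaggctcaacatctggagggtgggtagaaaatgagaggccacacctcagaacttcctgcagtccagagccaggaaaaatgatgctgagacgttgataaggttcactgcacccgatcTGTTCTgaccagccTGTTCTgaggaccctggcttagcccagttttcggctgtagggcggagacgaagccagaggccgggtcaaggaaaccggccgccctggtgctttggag
The hexamer occurred 2 times in the *Faah* window, which is 55.6% G and C. It did not occur in the window of *Cnr1*, at 79.2% G and C and with 36 CpG dinucleotides, nor in that of *Napepld*, at 69.6% and 21 CpG. Of 27025 promoter windows of this length, 16.1% held it, the median window had 52% G and C and 6 CpG dinucleotides, and the GC content of *Cnr1* stood above 98.5% of them. The corresponding window of *Mgll* held the hexamer 1 time and that of *Daglb* did not hold it. The letters CANNTG of an E-box, the kind of site bound by TCF4 and by NEUROD6, the product of the *Nex* gene, occurred 1 time each in *Cnr1*, *Napepld*, *Faah* and *Daglb* and 3 times in *Mgll*, beside 66.1% of all windows. These matches describe letters only and no binding was measured.

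Total counts ranged from 18347283 to 26555623 per mouse (median 21385946.5) and 22868 to 23987 genes were detected. *Fkbp5*, the check of the labels, had 1078 to 1602 counts in the 12 *Fkbp5* lox/lox mice and 169 to 582 in the 12 *Fkbp5* Nex mice, and was lower in *Fkbp5* Nex by a log2 fold change of -2.04 (SE 0.095, edgeR quasi-likelihood test, adjusted p = 5.75e-12). The tissue differed between mice in what it held: summed CPM (counts scaled to a common library size) of 5 choroid plexus markers ran from 14.44 to 4562 and of 6 thalamus markers from 70.75 to 317.4, with no marker of the 11 lists at 0 in all mice of a group. Dentate granule markers were lower in *Fkbp5* Nex mice (5 of 5 lower and 3 of 5 past an FDR of 0.02 over both rearing conditions, median log2 fold change -0.49), and choroid plexus markers were too (3 of 3 tested lower, 1 past the FDR, median -1.65). In bulk tissue, fewer cells of a type and less RNA per cell cannot be told apart.

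All 6 genes were well above the detection limit, at 425 to 9163 counts per mouse. Per kilobase of annotated exon, *Cnr1* stood highest, at 53.7 ± 6.94 CPM per kb (SD, n = 24), above 95.3% of 16152 tested genes with a length. *Mgll* followed at 31.9 ± 4.07 and *Faah* at 23.2 ± 2.11 CPM per kb. *Dagla* had 20.1 ± 3.5, *Napepld* 11.6 ± 2.31 and *Daglb* 2.75 ± 0.218 CPM per kb, the last above only 37.7% of genes. Neighbours in this order differed in the same direction in 24 of 24 mice except *Faah* and *Dagla*, whose SDs overlap and where *Faah* was above in 21 of 24. Of the 2 enzymes that make 2-AG, *Dagla* was thus 7.31-fold above *Daglb* per kb. With the length of the longest transcript in place of all exons, the order was the same and this ratio was 3.80. Reads in the exon bases that *Daglb* shares with *Rac1* may not be told apart, which limits the *Daglb* level and both ratios.

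The receptor gene *Cnr1* was the member with the most unequal spread between groups. Its level ran from 321.7 to 402.0 CPM (median 356.1) in the 6 *Fkbp5* lox/lox control mice and from 198.5 to 382.0 (median 330.8) in the 6 after ELS. The *Fkbp5* Nex controls spanned 295.9 to 430.6 CPM (median 333.4) and the *Fkbp5* Nex ELS mice 349.8 to 377.3 (median 368.6). All 4 ranges overlapped, and mouse 8 of the *Fkbp5* lox/lox ELS group lay below every other mouse. The coefficient of variation of *Cnr1* was 9.80% in *Fkbp5* lox/lox control and 19.7% in *Fkbp5* lox/lox ELS mice, and 13.3% in *Fkbp5* Nex control and 2.53% in *Fkbp5* Nex ELS mice, beside 1.17% from counting error alone.

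*Dagla*, the main DAG lipase of adult neurons, ran from 87.01 to 126.4 CPM (median 105.3) in *Fkbp5* lox/lox control mice and from 118.0 to 156.7 (median 122.3) after ELS. The *Fkbp5* Nex controls spanned 93.11 to 153.5 CPM (median 100.5) and the *Fkbp5* Nex ELS mice 93.68 to 149.1 (median 114.3). The 6 *Fkbp5* lox/lox ELS mice all lay above the mean of their controls, but the ranges overlap between 118.0 and 126.4 CPM. *Daglb*, the paralogue that is known mostly from microglia and other immune cells, ran from 22.75 to 29.43 CPM (median 26.3) in *Fkbp5* lox/lox controls and from 22.97 to 26.6 (median 25.14) after ELS. In *Fkbp5* Nex mice *Daglb* ran from 25.64 to 31.5 CPM (median 27.72) in controls and from 24.16 to 28.3 (median 25.68) after ELS. The highest *Daglb* value of all was in an *Fkbp5* Nex control mouse, and all groups overlapped. *Dagla* reads outnumbered *Daglb* reads 3.04 to 5.89 times per mouse, with group medians of 4.00 and 4.98 in *Fkbp5* lox/lox control and ELS mice and 3.83 and 4.52 in *Fkbp5* Nex.

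*Napepld*, the phospholipase that releases anandamide and other N-acylethanolamines, ran from 36.68 to 53.26 CPM (median 44.82) in *Fkbp5* lox/lox controls and from 40.27 to 74.27 (median 49.48) after ELS. Among *Fkbp5* Nex mice it ran from 33.87 to 56.74 CPM (median 40.88) in controls and from 36.31 to 50.01 (median 40.37) after ELS. The groups overlapped, and the highest value of all was again in mouse 8 of the *Fkbp5* lox/lox ELS group.

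Of the degrading enzymes, *Mgll* ran from 140.3 to 172.6 CPM (median 161.3) in *Fkbp5* lox/lox controls and from 150.0 to 179.2 (median 155.6) after ELS. In *Fkbp5* Nex mice *Mgll* ran from 148.4 to 194.1 CPM (median 173.7) in controls and from 128.8 to 220.0 (median 153.6) after ELS, so that the *Fkbp5* Nex ELS group held both the lowest and the highest mouse. *Faah* ran from 154.8 to 199.6 CPM (median 179.7) in *Fkbp5* lox/lox controls and from 168.3 to 208.6 (median 196.0) after ELS. In *Fkbp5* Nex mice *Faah* ran from 160.3 to 198.6 CPM (median 177.7) in controls and from 162.1 to 205.7 (median 174.1) after ELS. *Faah* and *Daglb* varied least, with a ratio of highest to lowest mouse of 1.35 and 1.385 over all 24. This ratio was 1.71 for *Mgll*, 1.80 for *Dagla*, 2.17 for *Cnr1* and 2.19 for *Napepld*. The coefficient of variation was 7.91% for *Daglb* and 9.09% for *Faah*.

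**Figure D1:**
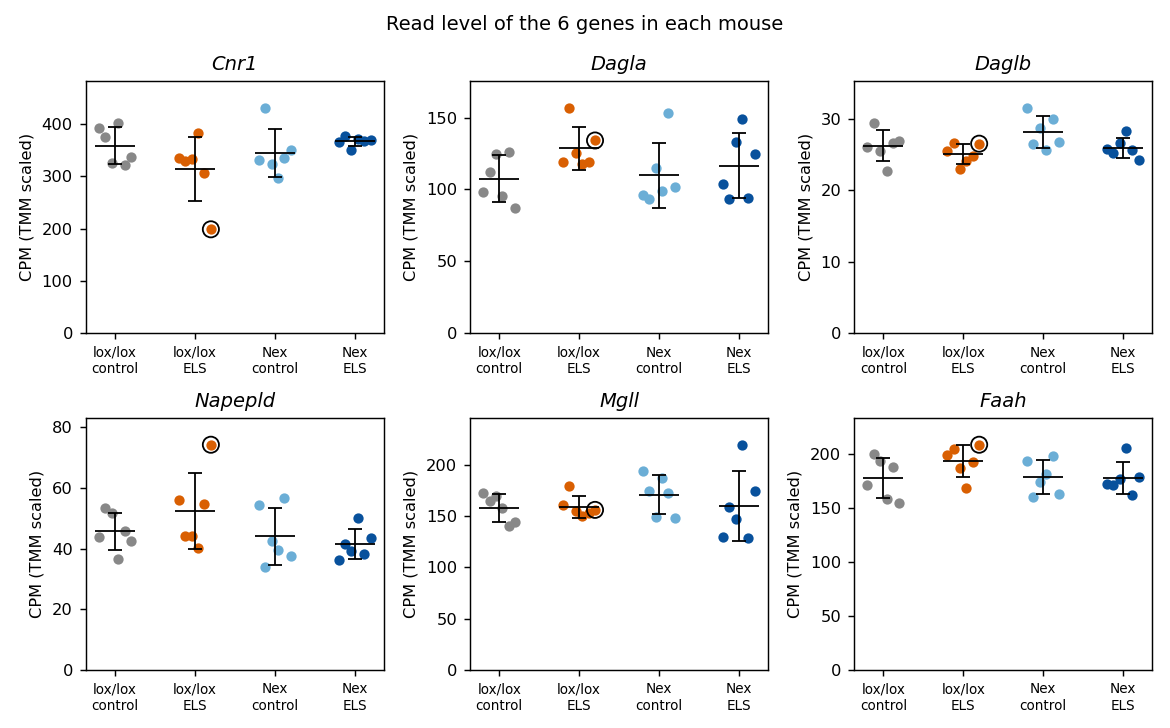
Level of each gene in each mouse (CPM scaled by TMM, y axis from 0) by group (x axis), with the mean (bar) and SD (whiskers) of 6 mice. Groups overlap in every panel, and the ringed point, mouse 8 of the *Fkbp5* lox/lox ELS group, is lowest for *Cnr1* at 198.5 CPM and highest for *Napepld* at 74.27 and *Faah* at 208.6.

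No member passed an FDR of 0.02 for ELS in *Fkbp5* lox/lox mice, where 0% of the 16209 genes tested did (edgeR quasi-likelihood test with 5 surrogate variables, which are factors estimated from all genes to stand for unlabelled variation). At an unadjusted p under 0.05 the count was 0 of 6, beside 4.86% of all genes. The largest fitted difference was that of *Dagla*, a log2 fold change of 0.16 (SE 0.112, adjusted p = 0.965) with a 95% interval from -0.08 to 0.39. *Cnr1* differed by 0.003 with an interval from -0.12 to 0.12 in this model, but by -0.19 when fitted without surrogate variables (edgeR adjusted p = 0.999) and by -0.22 in plain group means (exact permutation p = 0.141), both outside that interval. Of the 6 genes 5 were fitted higher after ELS, with a median log2 fold change of 0.04 beside 0.0025 over all genes. *Cnr1* was among the 5, and its sign reversed in 13 of the 24 fits that left out 1 mouse. Members varied together within groups, so these signs are not independent.

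In *Fkbp5* Nex mice, ELS called 0 of 6 members, beside 0% of all genes at the FDR, and 0 of 6 at an unadjusted p under 0.05, beside 2.8%. Fitted values lay between -0.062 for *Daglb* and 0.027 for *Dagla*, with a median of 0.002 beside 0.0037 over all genes. *Mgll* differed by -0.061 with an interval from -0.23 to 0.10 and *Cnr1* by 0.02 with an interval from -0.10 to 0.14. Over both genotypes ELS called 0 of 6, beside 0% at the FDR and 3.56% of all genes at an unadjusted p under 0.05, where the count of members was also 0.

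The genotype comparison in control mice called 0 of 6 members at the FDR, beside 0.0494% of all genes, and 1 of 6 at an unadjusted p under 0.05, beside 8.69%. That gene was *Daglb*, higher in *Fkbp5* Nex mice by 0.13 on the log2 scale (SE 0.048, adjusted p = 0.457). After ELS 0 of 6 were called, beside 0.0123% of genes, and 0 of 6 had an unadjusted p under 0.05, beside 6.59%, with *Daglb* at 0.10 (SE 0.05, adjusted p = 0.755). Over both rearing conditions 0 of 6 passed the FDR, beside 0.117%, and *Daglb* was the 1 of 6 with an unadjusted p under 0.05, beside 11.5% of genes. Its fitted level in *Fkbp5* Nex mice was 1.08-fold that in *Fkbp5* lox/lox mice, with a 95% interval from 1.03 to 1.14, an unadjusted p of 0.00304 and an edgeR adjusted p of 0.177. A share of members near the background share is no result about the members. *Mgll*, at 0.14 (SE 0.075, adjusted p = 0.61) in control mice, and the remaining genes had intervals that held 0.

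The interaction, in which the response to ELS of *Fkbp5* Nex mice is subtracted from the response of *Fkbp5* lox/lox mice, called 0 of 6, beside 0% at the FDR, and 0 of 6 at an unadjusted p under 0.05, beside 4.02%. Its intervals were the widest, from -0.19 to 0.45 for *Dagla* and from -0.185 to 0.143 for *Cnr1*. No member was called in any of these comparisons at an FDR of 0.05 either, nor by DESeq2's Wald test.

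The plain differences between group means, without surrogate variables, were larger for some genes than the fitted ones. Of 24 exact two-sided permutation tests on log2 CPM, 2 had an unadjusted p under 0.05, and the smallest p that 6 mice against 6 allow is 0.00216. After ELS, *Cnr1* had a mean log2 CPM of 8.27 ± 0.327 in *Fkbp5* lox/lox and of 8.52 ± 0.037 in *Fkbp5* Nex animals (SD over 6 mice per group), a difference of 0.25 (exact permutation p = 0.0173), and 6 of 6 *Fkbp5* Nex mice lay above the *Fkbp5* lox/lox mean. Without mouse 8 the difference was 0.13 (exact permutation p = 0.0346), and with surrogate variables the fitted value was 0.04 (SE 0.056). For *Dagla* in *Fkbp5* lox/lox mice it was 6.73 ± 0.221 under control rearing and 7.0 ± 0.159 with ELS (SD over 6 mice per group), a difference of 0.27 (exact permutation p = 0.0476), and 6 of 6 ELS mice lay above the control mean. The *Dagla* p was 0.0952 without control mouse 28, 44 or 74 or ELS mouse 8 or 56, 0.0606 without control mouse 30, 0.0649 without ELS mouse 68 and 0.0519 without ELS mouse 78 (exact permutation). It was 0.0346 without control mouse 34, 0.0216 without control mouse 50 and 0.0476 without ELS mouse 4 or 72 (exact permutation). *Napepld* was lower by 0.31 in *Fkbp5* Nex than in *Fkbp5* lox/lox mice after ELS (exact permutation p = 0.0584), and 0 of 6 *Fkbp5* Nex mice lay above the *Fkbp5* lox/lox mean, whereas the fitted value was -0.06 (SE 0.061). Without mouse 8, the highest in *Napepld*, the plain difference was -0.20 (exact permutation p = 0.117). The exact permutation p was also 0.117 without *Fkbp5* lox/lox ELS mouse 4 or 78, but 0.0476 without mouse 56 or 68, 0.026 without mouse 72 and 0.0216 without *Fkbp5* Nex ELS mouse 60, and without each of the other *Fkbp5* Nex ELS mice it lay between 0.0736 and 0.104. Both the *Cnr1* and the *Napepld* difference were thus smaller once the surrogate variables were in the model, for a reason that was not tested.

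**Figure D2:**
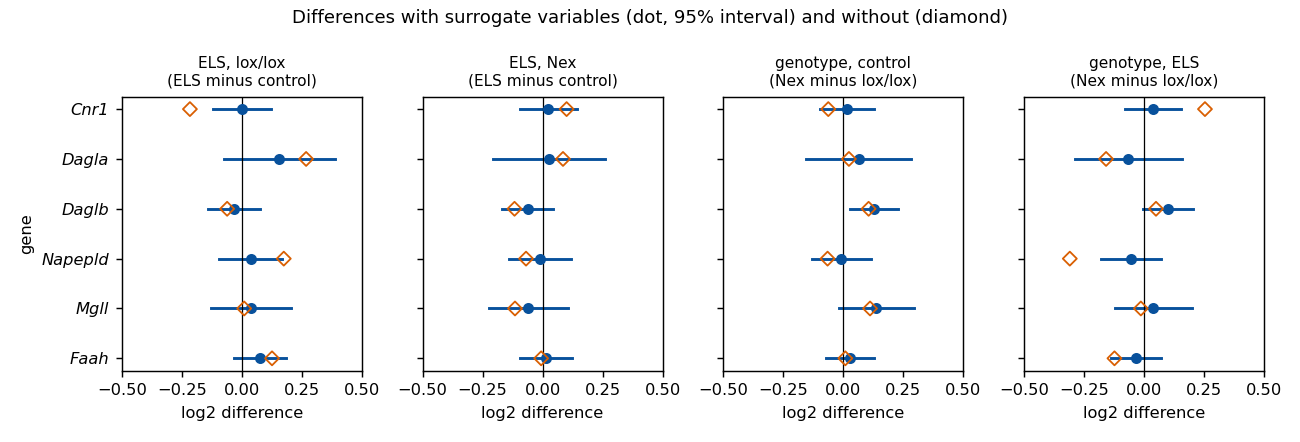
Log2 difference (x axis) of each gene (y axis) in 4 comparisons, as fitted with 5 surrogate variables (dots, 95% interval as line) and as the plain difference in mean log2 CPM (diamonds), 6 mice per group. Only the interval of *Daglb* for genotype in control mice leaves out 0, from 0.029 to 0.229 before adjustment, and the diamonds of *Cnr1* (0.253) and *Napepld* (-0.31) after ELS lie far from their dots.

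Within groups the genes did not vary independently. Of 15 pairs, 6 had a Pearson r past an adjusted p of 0.05 over the 24 mice, computed on deviations from the group means of log2 CPM with 100000 permutations within groups and Benjamini-Hochberg adjustment over the 15 pairs. The anandamide genes *Faah* and *Napepld* were closest, with Pearson's r = 0.795 and Spearman’s rho = 0.804 (permutation p = 2e-05 and 1e-05, adjusted p = 0.0003 and 0.00015, r = 0.756 without the 2 mice farthest from the median). The smallest p that these permutations can give is 1e-05. *Dagla* and *Faah* had r = 0.717 and rho = 0.681 (permutation p = 0.00021 and 0.0006, adjusted p = 0.00157 and 0.0045, r = 0.623 without 2 mice). *Daglb* and *Napepld* had r = 0.674 and rho = 0.643 (permutation p = 0.00087 and 0.00281, adjusted p = 0.00435 and 0.0129, r = 0.625 without 2 mice). *Daglb* and *Faah* had r = 0.653 and rho = 0.624 (permutation p = 0.00181 and 0.00345, adjusted p = 0.00679 and 0.0129, r = 0.563 without 2 mice). *Mgll* and *Faah* had r = 0.575 and rho = 0.535 (permutation p = 0.00374 and 0.0105, adjusted p = 0.0112 and 0.0314, r = 0.421 without 2 mice). All 5 of these positive pairs held *Faah* or *Napepld*. With the surrogate variables regressed out, 3 of 15 pairs passed (*Dagla* with *Faah*, *Daglb* with *Faah* and *Dagla* with *Daglb*), and *Faah* and *Napepld* had r = 0.511 (permutation, adjusted p = 0.0597).

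Before surrogate variables were regressed out, *Cnr1* was the exception in sign. Its relation with *Napepld* was r = -0.63 and rho = -0.501 (permutation p = 0.00782 and 0.0233, adjusted p = 0.0195 and 0.0583, r = -0.365 without 2 mice). It was -0.426 without mouse 8 of the *Fkbp5* lox/lox ELS group (permutation, adjusted p = 0.15), so its size depends on those mice. Over all 24 mice with the surrogate variables regressed out it was -0.15 (permutation, adjusted p = 0.709). With *Dagla*, *Daglb*, *Mgll* and *Faah*, *Cnr1* had r of -0.238, -0.289, 0.065 and -0.434, none past an adjusted p of 0.05. With the surrogate variables regressed out these were 0.147, -0.359, 0.547 and 0.018, again none past it. No sequencing batch is named in the labels, so no relation was recomputed within batches.

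The same deviations were set against scores of cell markers, each the mean z-score of a list, and 10 of 66 relations had an adjusted p under 0.05 for Pearson's r. *Napepld*, *Faah* and *Daglb* were lower in mice with higher scores of GABAergic interneuron markers. For *Napepld* the relation was r = -0.802 and rho = -0.792 (permutation p = 3e-05 and 4e-05, adjusted p = 0.00198 and 0.00264, r = -0.755 without 2 mice). For *Faah* it was r = -0.703 and rho = -0.695 (permutation p = 0.0005 and 0.00071, adjusted p = 0.0104 and 0.0117, r = -0.657 without 2 mice), and for *Daglb* r = -0.694 and rho = -0.656 (permutation p = 0.00063 and 0.00155, adjusted p = 0.0104 and 0.0205, r = -0.614 without 2 mice). *Napepld* also followed dentate granule markers, with r = 0.638 and rho = 0.508 (permutation p = 0.00434 and 0.028, adjusted p = 0.0358 and 0.143, r = 0.431 without 2 mice), and ran against CA1 pyramidal markers, with r = -0.652 and rho = -0.653 (permutation p = 0.00596 and 0.00312, adjusted p = 0.0437 and 0.0343, r = -0.499 without 2 mice). *Faah* followed dentate granule markers with r = 0.534 and rho = 0.483 (permutation p = 0.0071 and 0.022, adjusted p = 0.0469 and 0.143, r = 0.481 without 2 mice). The dentate markers are those that were lower in *Fkbp5* Nex mice, and their part in the genotype values of *Napepld* and *Faah* was not tested. Without mouse 8 of the *Fkbp5* lox/lox ELS group, *Napepld* had r = 0.522 with dentate granule (permutation, adjusted p = 0.149) and -0.497 with CA1 pyramidal markers (permutation, adjusted p = 0.226), and *Faah* 0.503 with dentate granule markers (permutation, adjusted p = 0.103). These 3 relations thus missed the threshold without that mouse. Their sign held, and r of *Faah* stayed close to its 0.534 with all mice. With the surrogate variables regressed out, 0 of the 66 relations passed.

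*Mgll* followed another set of markers. With CCK interneuron markers it had r = 0.617 and rho = 0.697 (permutation p = 0.00027 and 0.00016, adjusted p = 0.00891 and 0.00528, r = 0.668 without 2 mice). With the broader GABAergic interneuron markers *Mgll* had the opposite sign, at r = -0.484 and rho = -0.475 (permutation p = 0.0189 and 0.027, adjusted p = 0.0833 and 0.143, r = -0.568 without 2 mice), which missed the threshold. With microglia markers it had r = 0.636 and rho = 0.554 (permutation p = 0.00324 and 0.0142, adjusted p = 0.0305 and 0.105, r = 0.597 without 2 mice), and with astrocyte markers, of cells in which monoacylglycerol lipase is known to be present, r = 0.591 and rho = 0.645 (permutation p = 0.00307 and 0.00374, adjusted p = 0.0305 and 0.0353, r = 0.56 without 2 mice). *Cnr1* was lower in mice with higher thalamus markers, with r = -0.599 and rho = -0.644 (permutation p = 0.00125 and 0.00027, adjusted p = 0.0165 and 0.00594, r = -0.551 without 2 mice). With surrogate variables regressed out its sign turned, to r = 0.281 (permutation, adjusted p = 0.372). With CCK interneuron markers, of the cells known for most CB1, *Cnr1* had r = 0.569 and rho = 0.533 (permutation p = 0.0182 and 0.0143, adjusted p = 0.0833 and 0.105, r = 0.642 without 2 mice), which missed the threshold over 66 relations. With all GABAergic markers it had r = 0.425 and rho = 0.336 (permutation p = 0.0471 and 0.136, adjusted p = 0.183 and 0.373, r = 0.22 without 2 mice). Mouse 8, the lowest in *Cnr1*, had scores of -2.61 for CA1 pyramidal, 2.2 for dentate granule, 2.07 for thalamus and -1.26 for CCK interneuron markers. Without it 6 of the 66 relations passed, and *Cnr1* and thalamus had r = -0.467 (permutation, adjusted p = 0.119). *Cnr1* and CCK interneuron markers then had r = 0.38 (permutation, adjusted p = 0.447).

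**Figure D3:**
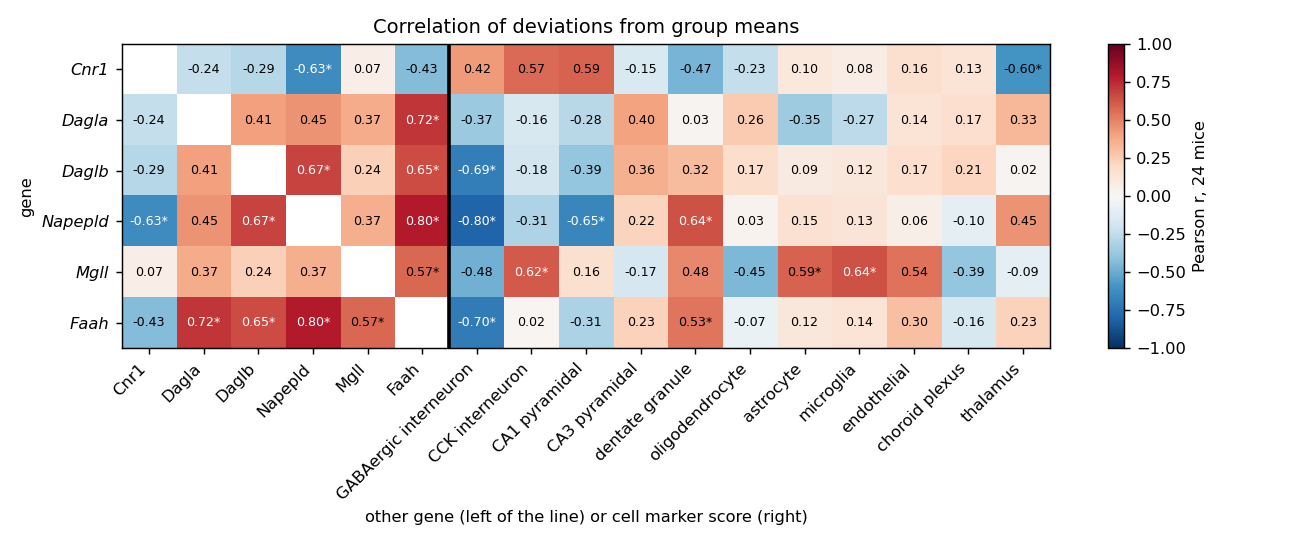
Pearson r over 24 mice, after removal of group means, between each gene (y axis) and the other genes (left of the line) or the cell marker scores (right), with an asterisk at an adjusted p under 0.05. *Faah* and *Napepld* correlate positively (0.795) and both run against GABAergic markers (-0.703 and -0.802), while *Cnr1* runs against *Napepld* (-0.63) and the thalamus score (-0.599, but 0.281 with surrogate variables regressed out). In that setting *Faah* and *Napepld* had r = 0.511, and with GABAergic markers they had -0.227 and -0.52. *Cnr1* and *Napepld* then had r = -0.15.

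**Figure D4:**
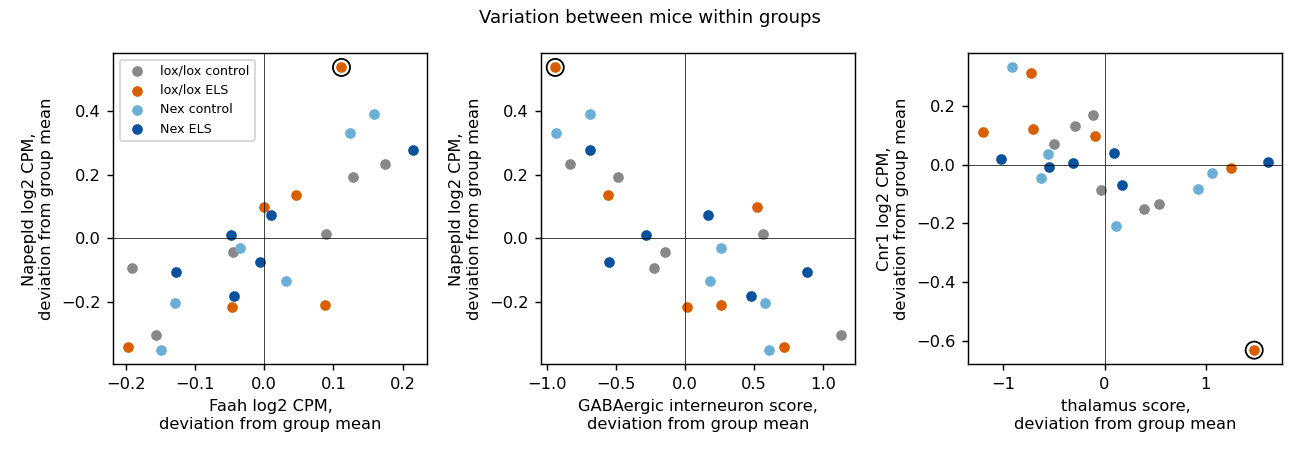
Deviation of each mouse from its group mean for *Napepld* against *Faah* (log2 CPM), *Napepld* against the GABAergic interneuron score (mean z-score) and *Cnr1* against the thalamus score, coloured by group. The ringed mouse 8 of the *Fkbp5* lox/lox ELS group lies at the top or bottom of all 3 clouds, and *Cnr1* and thalamus have r = -0.599 with it, -0.467 without it and 0.281 over all mice with surrogate variables regressed out.

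The genes most like each member in this variation, with r over 24 mice among 16208 other genes and no test, differed between the members. For *Cnr1* they were *Pde11a* (0.81), *Mllt3* (0.807) and *Ptpru* (0.797). For *Dagla* they were *Sipa1l3* (0.911), *Fmnl1* (0.886) and *Ptk2b* (0.877), and for *Daglb* *Kcnh1* (0.807), *Tmcc1* (0.788) and *Hipk4* (0.786). For *Napepld* they were *Camkk1* (0.912) and *Smoc2* (0.878). For *Mgll* they were *Nsmf* (0.826), *4632428N05Rik* (0.795) and *Col11a2* (0.794), and for *Faah* *R3hdm4* (0.906), *Rbfox1* (0.904) and *Enc1* (0.876). These points share library, depth and tissue make-up.

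A wider list of 36 genes around the pathway was read in the same way, and 31 had enough reads to be tested. The receptors *Cnr2*, *Gpr18* and *Gpr119*, the channel *Trpv1* and the acyltransferase *Plaat5* did not pass, with at most 14, 2, 5, 8 and 5 counts in any mouse. None of the 31 was called in any direction in any of the 7 comparisons, in which at an unadjusted p under 0.05 there were 2 for ELS in *Fkbp5* lox/lox (beside 4.86% of all genes), 0 for ELS in *Fkbp5* Nex (2.8%), 3 for genotype in control mice (8.69%), 2 for genotype after ELS (6.59%), 4 for genotype over both rearing conditions (11.5%), 0 for ELS over both genotypes (3.56%) and 1 for the interaction (4.02%). Among other receptors and targets, the nuclear receptor gene *Pparg* had most reads, at 2.18 ± 0.520 CPM (SD, n = 24). The CB1-binding partner with most reads was *Gprasp1*, which sorts receptors after their uptake, at 719.5 ± 52.8 CPM.

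Among the other enzymes on 2-AG, *Abhd12*, a serine hydrolase, had 244.7 ± 18.8 CPM, and *Ptgs2*, the cyclooxygenase that can oxidise 2-AG and is known as an activity-induced gene, had a log2 fold change of 0.41 for ELS in *Fkbp5* lox/lox mice (SE 0.16, edgeR adjusted p = 0.954). Of the enzymes that supply diacylglycerol, the phospholipase C gene *Plcb1* had 0.12 for ELS in *Fkbp5* lox/lox mice (SE 0.049, edgeR adjusted p = 0.954) and -0.14 for genotype after ELS (SE 0.047, edgeR adjusted p = 0.698). *Plcb4* had 0.31 for genotype in control mice (SE 0.138, edgeR adjusted p = 0.54). The metabotropic glutamate receptor gene *Grm5* had most reads there, at 315.1 ± 23.3 CPM.

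In the N-acylethanolamine branch, *Abhd4*, whose product opens a route to anandamide apart from NAPE-PLD, had the smallest adjusted p of the wider list. Its level in *Fkbp5* Nex mice was 1.16-fold that in *Fkbp5* lox/lox mice over both rearing conditions, with a 95% interval from 1.07 to 1.25 (edgeR adjusted p = 0.113), at a log2 fold change of 0.17 in control and 0.25 in ELS mice. *Pla2g4e*, an acyltransferase that makes the precursor of anandamide, had -0.25 for genotype in control mice (SE 0.105, edgeR adjusted p = 0.511). *Gde1*, a phosphodiesterase of the same branch, had most reads there, at 174.1 ± 15.4 CPM, and among lipid carriers it was *Scp2*, at 103.6 ± 8.09 CPM. The median log2 fold change of the 31 genes lay between -0.003 and 0.023 over the 7 comparisons, beside -0.0024 to 0.0037 over all genes.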

How the data were processed

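Hippocampal RNA of 24 mice was sequenced by a provider, and the table the authors deposited holds unnormalised read counts for each gene. Per the labels, reads were aligned with HISAT2 2.0.5 and counted with featureCounts 1.5.0-p3. The genome build, annotation and strand setting are not given in the sources used here. The depth, 18347283 to 26555623 counts per mouse, gives a median counting error of 1.17% for *Cnr1* to 4.24% for *Daglb*, and intervals of it cover counting error only.

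All else was computed here with edgeR 4.0.16, DESeq2 1.42.0 and sva 3.50.0 (R 4.3.3) and scipy 1.17.1 (Python 3.11.15). The 16209 genes tested reached 10 counts in all mice of 1 or more groups. They were scaled by TMM and fitted with group means plus 5 surrogate variables (svaseq on TMM CPM), using the quasi-likelihood test of edgeR at an FDR of 0.02, adjusted by Benjamini-Hochberg over all tested genes. The study's DESeq2 was an alternative. Log2 CPM used a prior count of 0.5. Steps were tested on simulated data. Gene positions are those of GENCODE vM21, which held 46488 of the 46983 identifiers.

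The members and gene lists were chosen with earlier results of these data known. Named genes were the members, *Fkbp5*, genes of the wider list with an unadjusted p under 0.05 in any of the 4 comparisons of single groups, the gene of each subgroup with most reads and the 3 genes most like each member. A gene that this rule names is not reported here. Symbols of 36 of 36 wider genes were matched. Alternatives were the Wald test of DESeq2, its size factors, no surrogate variables, an additive model, filterByExpr or no filter, an FDR of 0.05, the 12 mice of a comparison alone, and each mouse left out.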

Additional observations from a re-analysis of the deposited data

Results flagged for a closer look

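In 3 of the 24 sets of 6 mice (6 genes in 4 groups), 1 mouse stood apart from the others by Dixon's ratio, where chance gives about 5% of sets. *Dagla* was 153.5 CPM in mouse 54 of the *Fkbp5* Nex control group, beside 93.11 to 115.2 in the other mice. *Mgll* was 179.2 CPM in mouse 56 of the *Fkbp5* lox/lox ELS group, beside 150.0 to 160.6. *Faah* was 205.7 CPM in mouse 60 of the *Fkbp5* Nex ELS group, beside 162.1 to 178.4.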

How the results depend on the processing

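The result that no member passed the FDR held in all 7 comparisons under every alternative run, including each of 24 mice left out. Of 246 fitted log2 fold changes under the alternatives that kept the test's mice or used only those compared, 237 kept their sign, and of 1008 with 1 mouse left out 909 did. The member nearest the threshold, *Daglb* for genotype over both rearing conditions, lay between 0.076 and 0.143 under all that fitted this comparison, with a smallest edgeR adjusted p of 0.109. All values whose sign changed were uncalled. Without surrogate variables *Cnr1* had -0.194 for ELS in *Fkbp5* lox/lox, -0.059 for genotype in control rearing and -0.052 for ELS over both genotypes, and *Faah* -0.007 for ELS in *Fkbp5* Nex. For ELS in *Fkbp5* lox/lox, *Cnr1* had -0.005 with filterByExpr, -0.022 with no filter and -0.04 with only the 12 mice compared. With no filter, *Cnr1* had -0.003 for ELS over both genotypes and *Napepld* 0.005 for ELS in *Fkbp5* Nex. With surrogate variables regressed out, plain differences became 0.002 for *Cnr1* and ELS in *Fkbp5* lox/lox, 0.016 for *Cnr1* and genotype in control rearing, 0.029 for *Mgll* and genotype after ELS and 0.014 for *Faah* and ELS in *Fkbp5* Nex, and r of *Cnr1* and thalamus became 0.281. The causes were not tested.

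With 1 mouse left out, fitted log2 fold changes crossed 0 in these ranges. For ELS in *Fkbp5* lox/lox they were -0.088 to 0.039 for *Cnr1*, -0.034 to 0.107 for *Mgll* and -0.026 to 0.081 for *Napepld*. For ELS in *Fkbp5* Nex they were -0.014 to 0.05 for *Faah*, -0.102 to 0.127 for *Dagla*, -0.053 to 0.067 for *Napepld* and -0.019 to 0.048 for *Cnr1*. For genotype in control rearing they were -0.013 to 0.056 for *Faah*, -0.099 to 0.035 for *Cnr1*, -0.074 to 0.124 for *Napepld* and -0.068 to 0.128 for *Dagla*. For genotype after ELS they were -0.02 to 0.096 for *Cnr1*, -0.19 to 0.012 for *Dagla*, -0.063 to 0.007 for *Faah*, -0.098 to 0.016 for *Napepld* and -0.041 to 0.092 for *Mgll*. For genotype over both rearing conditions they were -0.06 to 0.05 for *Cnr1*, -0.024 to 0.024 for *Faah*, -0.104 to 0.041 for *Dagla* and -0.069 to 0.07 for *Napepld*. For ELS over both genotypes they were -0.031 to 0.041 for *Cnr1*, -0.022 to 0.061 for *Napepld* and -0.061 to 0.037 for *Mgll*. For the interaction they were -0.01 to 0.114 for *Napepld* and -0.133 to 0.02 for *Cnr1*. Plain differences did so too, in alternatives added after the data were seen. For genotype in control rearing they were -0.03 to 0.043 for *Faah*, -0.078 to 0.073 for *Dagla* and -0.144 to 0.005 for *Napepld*. For ELS in *Fkbp5* lox/lox they were -0.025 to 0.036 for *Mgll*. For genotype after ELS they were -0.111 to 0.043 for *Mgll*. For ELS in *Fkbp5* Nex they were -0.049 to 0.026 for *Faah* and -0.14 to 0.009 for *Napepld*. Of the 24 permutation tests, 1 to 5 had p under 0.05 with 1 mouse left out beside 2 with all mice. The count was 1 without *Fkbp5* lox/lox control mouse 28, 30, 44 or 74 or ELS mouse 8 or 78, 4 without *Fkbp5* lox/lox ELS mouse 72 or *Fkbp5* Nex control mouse 32, and 5 without *Fkbp5* Nex ELS mouse 60. Of the correlations, 3 of 15 pairs and 0 of 66 marker relations passed with surrogate variables regressed out, beside 6 and 10, and 6 marker relations without mouse 8 of the *Fkbp5* lox/lox ELS group, a setting also chosen after the data were seen.

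Counts over all genes moved by more than 1.5 times for genotype over both rearing conditions, from 19 to 3 without surrogate variables, 72 with DESeq2 and 50 at an FDR of 0.05. For genotype in control rearing they moved from 8 to 2, 53 and 29, and to 4 with only the 12 mice compared, and for genotype after ELS from 2 to 4 with DESeq2. They moved from 0 to 1 for ELS in *Fkbp5* lox/lox with DESeq2 and for ELS in *Fkbp5* Nex and over both genotypes with no filter. The study assigned dams with their litters to ELS or control and compared littermate genotypes, but the labels name no litter. No analysis paired or grouped by litter was therefore possible, and every mouse was treated as independent. Depth limits *Daglb* most: its counting error was 4.27% beside a coefficient of variation of 5.67% in *Fkbp5* lox/lox ELS mice, and 4.30% beside 5.38% in *Fkbp5* Nex ELS mice.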
